A study of Mus musculus with 4 samples.

Results

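Notch signalling and the connexins of arteries were followed through 9 genes of the 30905 in the matrix, each found on 1 row by its symbol. They are the ligand genes *Dll4* and *Jag1*, the receptor genes *Notch1*, *Notch3* and *Notch4*, the target genes *Hey1* and *Heyl*, and the connexin genes *Gja4* and *Gja5*. RNA was measured cell by cell with the 10x Chromium 3' kit in 4 mouse hearts grafted heterotopically, that is, sewn to the vessels of the recipient's abdomen, and taken on day 5. In 2 allogeneic grafts the donor was of strain Balb/C, and in 2 syngeneic grafts the donor was C57BL/6J. All recipients were C57BL/6J, all mice were males aged 8 to 10 weeks, and no transgene, drug or cell sort was used. Each graft still holds donor vessels together with cells that came in from the recipient. The deposited matrix of 53824 cells is divided by barcode suffix into 4 libraries, and no source used here pairs a suffix with a graft. The libraries are therefore given as libraries 1 to 4, no allogeneic value was set against a syngeneic one, and no result has replicates or a test.

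Levels are given as CPM, the unique molecular identifiers (UMIs) of a gene per 1000000 non-mitochondrial UMIs of the same cells. Values in parentheses after a level or fold are exact 95% intervals, which cover counting error only. Library totals ran from 96020294 to 166079145 UMIs, with medians of 4759 to 9784 UMIs per deposited cell, and 308 barcode sequences occurred in 2 libraries. A total of 42395 cells were used. A 3' count depends on the transcript, so a level is compared between cells and libraries and not between genes.

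As background, Notch receptors are activated by ligands on a neighbouring cell, after which their intracellular part is cut free and joins the DNA-binding protein RBPJ to switch on targets such as the HEY repressors. DLL4 and JAG1 act on NOTCH1 and NOTCH4 in endothelium, where Notch activity is known for setting arterial identity, and JAG1 on endothelium acts on NOTCH3 in the pericytes and smooth muscle that wrap vessels. The connexins encoded by *Gja4* and *Gja5* form gap junctions, channels that couple neighbouring cells, and are known from arterial endothelium.

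All 9 genes are protein-coding in GENCODE M21, and their positions are given in GRCm38, the assembly also called mm10. *Dll4* lies at chr2:119325784-119335962 and *Jag1* at chr2:137081456-137116644. The receptor genes lie at chr2:26457903-26516663 for *Notch1*, chr17:32120820-32166852 for *Notch3* and chr17:34564268-34588503 for *Notch4*. *Hey1* lies at chr3:8663359-8667256 and *Heyl* at chr4:123233556-123249875. *Gja4* lies at chr4:127311421-127314039 and *Gja5* at chr3:96904693-97077416. RefSeq promoter sequences of the same assembly (GRCm38.p6) matched 7 members by symbol, all but *Hey1* and *Heyl*. The 250 bases before the RefSeq start are shown for *Gja5*, *Gja4* and *Jag1*, because these were the matched members with the widest gap between arterial-like and capillary-like cells below. A RefSeq start can differ from the start of the GENCODE span given above. The *Gja5* window lies inside the span of that gene, and the *Jag1* window overlaps the end of its span. Capitals mark matches to 3 motifs searched on both strands, TGGGAA (the core bound by RBPJ), CACGTG (an E-box) and ACAAAG (bound by SOX factors).
Gja5 promoter, chr3:97032152-97032401, plus strand: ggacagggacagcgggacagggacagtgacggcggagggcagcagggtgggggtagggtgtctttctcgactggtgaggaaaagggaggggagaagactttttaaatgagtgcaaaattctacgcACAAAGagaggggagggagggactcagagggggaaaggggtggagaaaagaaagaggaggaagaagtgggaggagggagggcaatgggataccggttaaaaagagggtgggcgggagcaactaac
Gja4 promoter, chr4:127314040-127314289, minus strand: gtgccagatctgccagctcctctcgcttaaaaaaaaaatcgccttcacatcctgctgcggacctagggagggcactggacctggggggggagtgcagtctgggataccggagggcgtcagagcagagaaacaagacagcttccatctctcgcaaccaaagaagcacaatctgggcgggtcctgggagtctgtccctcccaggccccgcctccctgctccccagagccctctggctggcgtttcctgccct
Jag1 promoter, chr2:137116521-137116770, minus strand: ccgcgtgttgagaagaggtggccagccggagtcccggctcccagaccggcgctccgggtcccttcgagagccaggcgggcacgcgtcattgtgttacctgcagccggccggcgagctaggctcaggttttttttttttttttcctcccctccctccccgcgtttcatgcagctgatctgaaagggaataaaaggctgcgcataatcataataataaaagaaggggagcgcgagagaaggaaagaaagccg
The only match in the 7 promoters was ACAAAG in that of *Gja5*, starting 125 bases before the start. Of 32851 promoters of this length, 21.6% held TGGGAA, 6.02% held CACGTG and 16.5% held ACAAAG. A match is a description of the letters, and a window without one says nothing about the factor.

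Cells were placed in classes by markers that include none of the 9 genes, and the 9 genes were also kept out of the genes used for clustering. This gave 14980 endothelial-like, 898 pericyte-like and 719 smooth muscle-like cells, and the latter classes together are called mural-like (1617 cells). A further 809 cells carried mural markers with endothelial marker RNA at 20% or more of the endothelial level and are called mixed mural cells. They include a subcluster of 55 cells led by *Cxcl9*, 54 of them in library 4. It stood at 23.4% of that level and reached 0 of the 9 endothelial markers by the rule given below. Within the endothelial-like class, 12634 cells were capillary-like, 360 arterial-like, 185 lymphatic-like, 176 cycling and 628 interferon-like, the last led by *Ubd*, *Serpina3g* and *Cxcl9*. A further 691 cells of the endothelial clusters carried markers of another class, 683 of them in library 2 with a median of 780 UMIs over all, and are left out of the endothelial-like class. A cluster of 197 endothelial-like cells rich in *Npr3* and *Vwf* reached 7 of 8 venous markers and also 5 endocardial markers. Its leading genes held more endocardial than venous markers, so it took no single vessel name and is called by *Npr3* and *Vwf*. The classes were spread unevenly: 625 of the interferon-like cells and 2 of the capillary-like cells lay in library 4, and library 2 held 36 of the arterial-like cells. A cluster of 701 endothelial-like cells led by *Cxcl3* and *Spp1* lay wholly in library 2 and has no vessel name. Its leading genes also include *Cxcl5*, *Ccl3*, *Ccl7*, *Chil3* and *Clec4e*, and it reached 1 capillary and 1 venous marker. The class also holds 99 cells, 92 of library 2, whose leading genes are the platelet genes *Nrgn*, *Clec1b* and *Gp9*. In library 2 the pericyte-like class consists of 342 cells of 1 subcluster among 344. That subcluster carried all 9 pericyte markers but was led by *Cxcl5*, *Cxcl3* and *Il11* with the granulocyte genes *S100a9*, *S100a8* and *Retnlg*. Pooled pericyte-like levels of members are therefore also given without it below, while the pericyte-like values of library 2 still rest on it. A total of 2888 cells stayed unnamed. *Cdh5*, an adhesion protein of endothelium, stood at 1214 CPM in endothelial-like cells and 53.4 CPM in mural-like cells. The arterial marker *Stmn2* stood at 716 CPM in arterial-like and 80.2 CPM in capillary-like cells. Both are in the marker lists that gave the names, so these levels describe the classes and do not check them.

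The 9 genes divided between the endothelial-like and the mural-like cells. *Dll4*, *Notch1*, *Notch4*, *Hey1* and *Gja5* were higher in endothelial-like cells, and *Jag1*, *Notch3*, *Heyl* and *Gja4* were higher in mural-like cells. These 5 of 9 members stand beside 52.3% of the 12972 genes with at least 100 UMIs in the 2 classes, so the number itself is close to that of other genes. With 1 CPM added to both levels, 4 of 9 members were at least 2-fold higher in endothelial-like cells (*Notch1*, *Notch4*, *Dll4* and *Gja5*; 14.8% of all genes) and 4 were at least 2-fold higher in mural-like cells (*Notch3*, *Jag1*, *Heyl* and *Gja4*; 13.9% of all genes). Their median log2 ratio was 0.76, and that of all genes was 0.04. Each direction was the same in libraries 1, 2 and 3 taken alone. Library 4 held only 2 mural-like cells, beside 54 mixed mural cells that were left out. The same 5 members were higher in endothelial-like cells without the platelet-led cells and without the granulocyte-led pericyte-like subcluster.

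**Figure D1:**
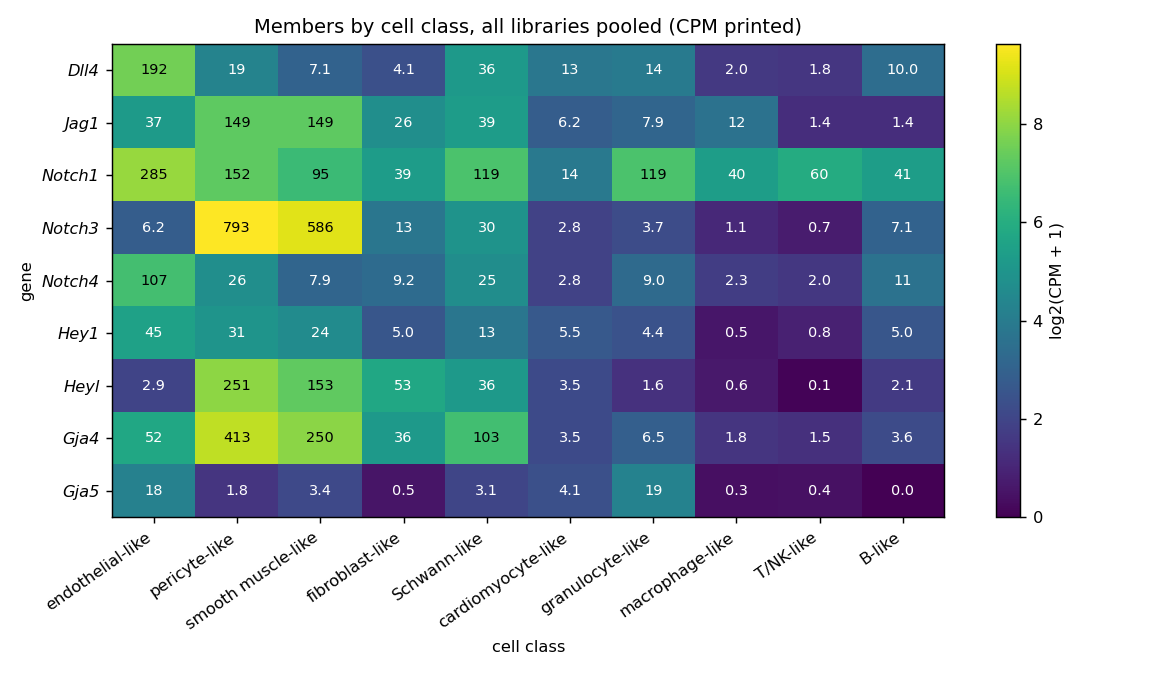
Level of each of the 9 genes (rows) in 10 cell classes (columns), all libraries pooled, with CPM printed in each field and log2(CPM + 1) as colour. Read along a row, *Dll4* and *Notch4* peak in endothelial-like cells at 192 and 107 CPM, and *Notch3*, *Heyl* and *Gja4* peak in pericyte-like cells at 793, 251 and 413 CPM.

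Between the whole classes, the ligand genes took opposite sides of the vessel wall. *Dll4*, the ligand known from tip and arterial endothelium, stood at 219, 205, 176 and 131 CPM in libraries 1, 2, 3 and 4 in endothelial-like cells. It stood at 13.1, 12.8 and 7.42 CPM in libraries 1, 2 and 3 in mural-like cells, so every endothelial value lay above every mural one. Pooled, this was 192 CPM (189.8 to 195) against 11.1 CPM (9.19 to 13.2), a ratio of 17.4-fold (14.6 to 20.9). *Jag1*, the ligand that endothelium is known to present to mural cells, stood at 141, 142 and 165 CPM in libraries 1, 2 and 3 in mural-like cells and at 45.9, 29.2, 43.5 and 19.0 CPM in libraries 1, 2, 3 and 4 in endothelial-like cells. The groups of values did not overlap, and the pooled level was 3.997-fold (3.77 to 4.23) higher in mural-like cells. Most endothelial-like cells were capillary-like, and the 360 arterial-like cells differed. They held *Jag1* at 339, 192 and 163 CPM in libraries 1, 2 and 3, above the mural-like level in libraries 1 and 2 but not 3. Shares after thinning are of cells with at least 1000 UMIs, each thinned to 1000, which left out 1564 of the 14980 endothelial-like cells. Of the cells kept, 17.1% (16.4 to 17.7%) of endothelial-like cells held a *Dll4* UMI and 0.0541% (0.00137 to 0.301%) of T/NK-like cells did. Median depths, here and below over all cells of the class before thinning, were 4867 and 8441 UMIs.

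The 3 receptor genes differed in where they were read. *Notch1*, read in every class, stood at 302, 269, 298 and 248 CPM in libraries 1, 2, 3 and 4 in endothelial-like cells and at 121, 102 and 124 CPM in libraries 1, 2 and 3 in mural-like cells. The endothelial values were all higher, with a pooled ratio of 2.49-fold (2.36 to 2.64). *Notch1* was next highest in pericyte-like cells at 152 CPM (140.3 to 165), and granulocyte-like and Schwann-like cells followed at 119 CPM (113 to 125) and 119 CPM (109 to 129), whose intervals overlap. For 100 *Cdh5* UMIs, Schwann-like cells held 65.9 and 28.8 *Notch1* UMIs in libraries 1 and 3, beside 27.0 and 21.4 in endothelial-like cells. The part of endothelial RNA in the Schwann-like level was not tested. *Notch4*, a receptor known for its endothelial expression, stood at 89.0, 137, 97.2 and 69.1 CPM in libraries 1, 2, 3 and 4 in endothelial-like cells. In the other named classes it lay between 1.96 and 26.3 CPM, the highest of these in pericyte-like cells, where *Cdh5* stood at 80.8 CPM. That pericyte-like level (21.5 to 31.97) overlaps the 25.3 CPM (20.9 to 30.4) of Schwann-like cells. Without the granulocyte-led subcluster it was 19.3 CPM, below the Schwann-like level. *Notch3*, the receptor known from mural cells, stood at 728, 358 and 949.9 CPM in libraries 1, 2 and 3 in mural-like cells and at no more than 7.09 CPM in the endothelial-like cells of any library. Its pooled level was 106-fold (97.5 to 114) higher in mural-like cells, the widest gap of the 9 genes. After thinning, 49.1% (45.6 to 52.6%) of pericyte-like cells held a *Notch3* UMI, beside 0.162% (0.0335 to 0.474%) of T/NK-like cells, at median depths of 3419 and 8441 UMIs.

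The HEY genes followed the same division. *Heyl* stood at 142, 111 and 310.0 CPM in libraries 1, 2 and 3 in mural-like cells and between 0.240 and 3.64 CPM in the endothelial-like cells of the 4 libraries. The pooled mural level was 64.2-fold (57.0 to 72.5) higher. *Hey1* was nearer to even, at 36.1, 43.8, 58.9 and 15.0002 CPM in libraries 1, 2, 3 and 4 in endothelial-like cells and 25.5, 21.1 and 32.9 CPM in libraries 1, 2 and 3 in mural-like cells. Here the values overlapped, because library 4 lay below every mural value, and the pooled ratio was 1.72-fold (1.53 to 1.94). Its ratio turned when the mixed mural cells were counted as mural, to a log2 ratio of -0.72.

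Between the whole classes, the connexin genes were split as well. In the arterial-like part alone, *Gja4* stood at 467, 844 and 457 CPM in libraries 1, 2 and 3, above every value of the mural-like class as a whole. Pericyte-like cells taken alone stood at 478 CPM in library 3, above the arterial-like value of that library. *Gja4* stood at 263, 252 and 402 CPM in libraries 1, 2 and 3 in mural-like cells and 28.2, 37.5, 70.6 and 105 CPM in libraries 1, 2, 3 and 4 in endothelial-like cells, without overlap and 5.88-fold (5.64 to 6.14) higher in mural-like cells when pooled. *Gja5* stood at 8.34, 17.4, 23.9 and 23.8 CPM in libraries 1, 2, 3 and 4 in endothelial-like cells and 0.327, 5.50 and 1.85 CPM in libraries 1, 2 and 3 in mural-like cells, with a pooled ratio of 6.32-fold (4.46 to 9.26). Endothelial RNA was present in the mural-like cells, where the summed level of the 9 endothelial markers ran from 465 CPM in smooth muscle-like cells of library 3 to 1354 CPM in pericyte-like cells of library 2, with none of the 9 at 0. Its part in the low mural levels of *Dll4*, *Notch4* and *Gja5* was not tested.

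Within endothelium, the arterial-like cells stood above the capillary-like cells most clearly in *Jag1*, *Hey1* and the connexins. With 1 CPM added, 4 of 9 members were at least 2-fold higher in arterial-like cells (*Jag1*, *Hey1*, *Gja4* and *Gja5*), beside 4.96% of the 11956 genes compared, and none was 2-fold higher in capillary-like cells, beside 5.35%. Their median log2 ratio was 0.77, and that of all genes was 0.12. The comparison rests on libraries 1, 2 and 3, with 79, 36 and 245 arterial-like cells. It also rests on the clustering, because the number of cells named arterial ran from 96 to 3022 over the alternatives. Other random starts of the same clustering named 415, 3022 and 238 cells, of which 339, 236 and 203 were among these 360. With the widest of these groups, of 3022 cells, only *Gja4* and *Gja5* were at least 2-fold higher, and *Jag1* and *Hey1* had log2 ratios of 0.85 and 0.72.

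**Figure D2:**
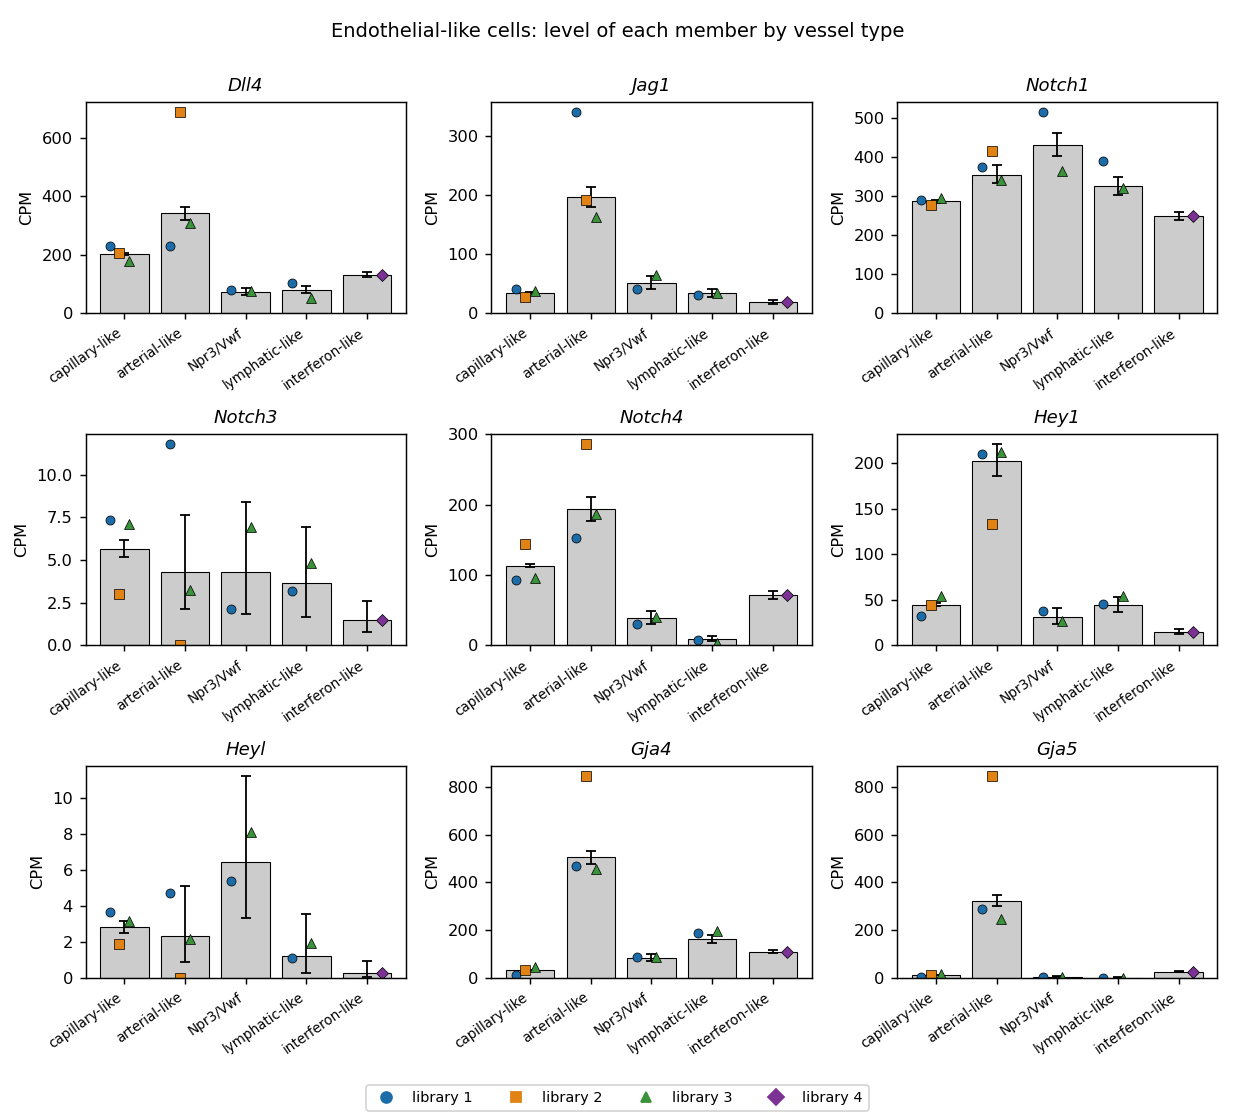
Level of each gene in CPM (y axis, linear from 0) in 5 groups of endothelial-like cells (x axis). Bars are pooled levels with exact 95% Poisson intervals, and symbols are single libraries with at least 20 cells of the group. *Gja5* rises from 9.71 CPM in the capillary-like bar to 323 CPM in the arterial-like bar, and the arterial-like value of library 2 stands above the others for *Dll4*, *Notch4*, *Gja4* and *Gja5*.

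*Gja5* showed the widest gap. It stood at 288, 844 and 244 CPM in libraries 1, 2 and 3 in arterial-like cells and at 3.88, 10.2 and 13.5 CPM in libraries 1, 2 and 3 in capillary-like cells. Every arterial value lay above every capillary one, and the ratio was 74.1, 82.9 and 18.0-fold in libraries 1, 2 and 3, or 33.3-fold (30.2 to 36.6) when pooled. *Gja4* stood at 467, 844 and 457 CPM in libraries 1, 2 and 3 in arterial-like cells and at 11.4, 30.4 and 46.3 CPM in libraries 1, 2 and 3 in capillary-like cells, again without overlap. Its ratio was 40.9, 27.8 and 9.86-fold in libraries 1, 2 and 3, and 16.3-fold (15.2 to 17.4) when pooled. After thinning, 34.7% (29.8 to 39.9%) of arterial-like and 2.64% (2.35 to 2.96%) of capillary-like cells held a *Gja4* UMI, and the shares for *Gja5* were 19.3% (15.4 to 23.8%) and 0.699% (0.553 to 0.872%), beside 0.217% and 0.0541% of T/NK-like cells.

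*Hey1* stood at 209.8, 133 and 213 CPM in libraries 1, 2 and 3 in arterial-like cells and 32.4, 44.4 and 54.3 CPM in libraries 1, 2 and 3 in capillary-like cells. The values did not overlap, and the ratio was 6.47, 3.001 and 3.92-fold in libraries 1, 2 and 3, and 4.54-fold (4.13 to 4.97) when pooled. *Jag1* stood at 339, 192 and 163 CPM in libraries 1, 2 and 3 in arterial-like cells and 41.4, 27.3 and 37.8 CPM in libraries 1, 2 and 3 in capillary-like cells, also without overlap. Its ratio was 8.19, 7.02 and 4.31-fold in libraries 1, 2 and 3, and 5.61-fold (5.09 to 6.16) when pooled. *Heyl* was low in both groups, at 2.33 and 2.80 CPM, with a ratio of 0.832-fold (0.302 to 1.84), and *Notch3* stood at 4.27 and 5.65 CPM with a ratio of 0.757-fold (0.375 to 1.37). These 2 genes had 6 and 11 UMIs in all arterial-like cells, and both intervals include 1. The log2 ratio of *Notch3* ran from -1.24 to 1.17 over the 23 alternatives, so its direction is not settled here.

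*Dll4*, *Notch1* and *Notch4* were higher in arterial-like cells by less. *Dll4* stood at 231, 689 and 309.6 CPM in libraries 1, 2 and 3 in arterial-like cells and at 229, 206 and 179 CPM in libraries 1, 2 and 3 in capillary-like cells. Its ratio was 1.01, 3.34 and 1.73-fold in libraries 1, 2 and 3, with an interval of 0.816 to 1.23 in library 1 that includes 1, and 1.69-fold (1.57 to 1.81) when pooled. *Notch1* stood at 375, 416 and 341 CPM in libraries 1, 2 and 3 in arterial-like cells and at 289.6, 277 and 297 CPM in libraries 1, 2 and 3 in capillary-like cells, without overlap. Its ratio was 1.29, 1.501 and 1.15-fold in libraries 1, 2 and 3, and 1.24-fold (1.16 to 1.32) when pooled. *Notch4* stood at 153, 286 and 187 CPM in libraries 1, 2 and 3 in arterial-like cells and 93.3, 144 and 96.1 CPM in libraries 1, 2 and 3 in capillary-like cells. Its ratio was 1.64, 1.99 and 1.95-fold in libraries 1, 2 and 3, and 1.71-fold (1.56 to 1.87) when pooled. The pooled ratios of *Dll4* and *Notch4* passed 2-fold under 8 and 2 of the 23 alternatives and fell to log2 ratios of -0.09 and -0.29 at the lowest.

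**Figure D3:**
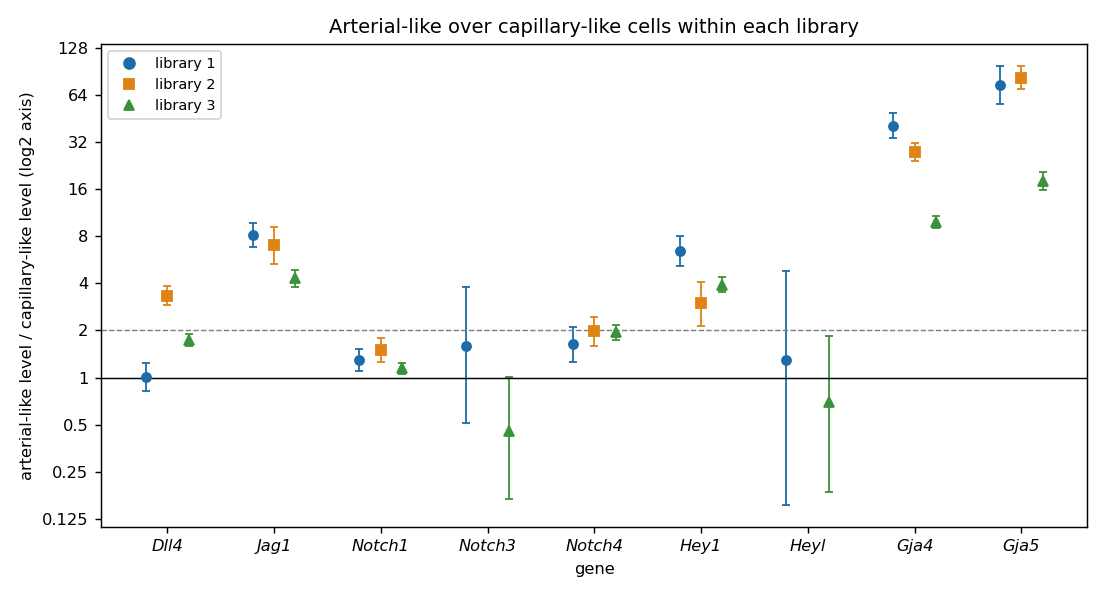
Ratio of the arterial-like to the capillary-like level of each gene (y axis, log2 scale) within libraries 1, 2 and 3. Points are ratios, bars are exact 95% intervals from counting error, the solid line marks 1 and the dashed line marks 2. *Jag1*, *Hey1*, *Gja4* and *Gja5* lie above 2 in all 3 libraries, from 3.001 for *Hey1* to 82.9 for *Gja5*, both in library 2, and *Notch3* and *Heyl* have no point in library 2, where its arterial-like cells held 0 UMIs of either.

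The level of several members differed between libraries. Over all endothelial-like cells, 6 of 9 members had a highest library at least 2-fold the lowest (*Notch3*, *Jag1*, *Hey1*, *Heyl*, *Gja4* and *Gja5*), beside 36.5% of the 12564 genes with at least 100 UMIs. Without library 4 it was 2 of 9, with no share of all genes counted for that setting, so this number is not set against other genes. Within capillary-like cells of libraries 1, 2 and 3 alone it was 3 of 9 (*Notch3*, *Gja4* and *Gja5*), beside 18.8%, and *Notch1* ranged only from 277 to 297 CPM. Within arterial-like cells, where only libraries 1 and 3 had at least 50 cells, it was 1 of the 7 members past the minimum (*Jag1*), beside 5.59%. The 36 arterial-like cells of library 2 stood above those of libraries 1 and 3 in *Dll4*, *Notch4*, *Gja4* and *Gja5*, with intervals of 599 to 788 CPM for *Dll4*, 229 to 352 CPM for *Notch4* and 745 to 954 CPM for both *Gja4* and *Gja5*. The summed level of the 10 arterial markers in those cells was 3703 CPM, below the 5137 and 6537 CPM of libraries 1 and 3. Granulocyte markers summed to 1572 CPM there and to 54.2 and 28.8 CPM in libraries 1 and 3, and the 5 erythroid markers to 162 CPM there and 1252 and 3918 CPM in libraries 1 and 3. Their part in the difference was not tested.

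Among capillary-like cells, 1 subcluster of 2541 cells, mostly of library 1, was led by *Ifit1* and *Isg15*, genes known to be induced by interferon. Set against the largest capillary-like subcluster within library 1, it had *Gja4* at 4.40 against 12.1 CPM and *Gja5* at 0.574 against 5.01 CPM. Within library 3 *Gja4* stood at 7.91 against 28.0 CPM. *Dll4* went the other way, at 239.6 against 169.7 CPM in library 1 and 176 against 134 CPM in library 3. *Notch4* was lower in the *Ifit1* subcluster in both libraries, with ratios of 0.793 and 0.475, and *Notch1* was higher, with ratios of 1.36 and 1.17. The higher *Dll4* and *Notch1* depend on the subcluster chosen for comparison. A different capillary-like subcluster, of 2111 cells, held *Dll4* at 263 and 192 CPM and *Notch1* at 409 and 321 CPM in libraries 1 and 3. *Notch1* in the *Ifit1* subcluster was 288 and 263 CPM, so both genes were lower there, as were *Gja4* and *Notch4*.

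The interferon-like cells had the Notch genes below the capillary-like level per 1000000 UMIs and had more RNA of *Gja4* and *Gja5*. *Gja4* stood at 109 CPM (101 to 116) against 31.0 CPM (29.8 to 32.2), a ratio of 3.50-fold (3.24 to 3.78), and *Gja5* at 25.0 CPM (21.7 to 28.8) against 9.71 CPM (9.06 to 10.4), a ratio of 2.58-fold (2.20 to 3.01). These 2 of 9 members were at least 2-fold higher in the interferon-like cells, beside 5.83% of the 12061 genes compared. *Hey1*, *Heyl* and *Notch3*, 3 of 9, were at least 2-fold lower, beside 11.7%. *Hey1* stood at 14.8 CPM (12.3 to 17.7) and 44.7 CPM (43.3 to 46.1). The calls of *Heyl* and *Notch3* rest on only 2 and 12 UMIs in the interferon-like cells. *Heyl* stood at 0.249 against 2.80 CPM and *Notch3* at 1.49 against 5.65 CPM, both low in either group. The ligand and receptor genes had ratios of 0.652 for *Dll4*, 0.536 for *Jag1*, 0.867 for *Notch1* and 0.635 for *Notch4*, and the median log2 ratio was -0.65 for the members and -0.19 for all genes. After thinning, 11.5% (9.09 to 14.2%) of interferon-like and 2.64% (2.35 to 2.96%) of capillary-like cells held a *Gja4* UMI, at median depths of 9501 and 4614 UMIs. Markers moved as well. The 9 endothelial markers summed to 5265 CPM in interferon-like and 9168 CPM in capillary-like cells, the 8 macrophage markers to 839 and 144 CPM and the 5 erythroid markers to 6147 and 2949 CPM. For 100 *Cdh5* UMIs there were 31.7 *Notch1* UMIs in the endothelial-like cells of library 4 and 21.4 to 27.0 in those of the other libraries, so *Notch1* was not lower on this scale. *Dll4*, at 16.7 beside 12.7 to 19.6, and *Notch4*, at 8.82 beside 6.98 to 11.5, lay within the range of the other libraries. *Jag1*, at 2.42 beside 2.44 to 4.11, lay just below it. *Hey1* was lower, at 1.92 beside 3.22 to 4.23, and *Gja4* was higher, at 13.4 beside 2.52 to 5.07. The part of these shifts in the member values was not tested. The 10 arterial markers summed to 1477 CPM in the interferon-like cells and 2040 CPM in the capillary-like cells. *Stmn2*, 1 of these 10, fell more, with 24.7 and 80.2 CPM. The 9 capillary markers summed to 10957 and 31538 CPM in the same order. Because 625 of 628 interferon-like cells were of library 4 and all but 2 of the capillary-like cells were of the other libraries, library and cell state cannot be told apart here.

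Lymphatic-like cells and the *Npr3* and *Vwf* cluster had *Notch1* at or above the arterial-like level but little *Notch4*. *Notch1* stood at 432 CPM (403 to 463) in the *Npr3* and *Vwf* cluster, at 356 CPM (333 to 379) in arterial-like and at 326 CPM (304 to 349.7) in lymphatic-like cells, of which the arterial-like and lymphatic-like intervals overlap. *Notch4* stood at 38.5 CPM (30.1 to 48.5) and 9.35 CPM (5.93 to 14.03) in the *Npr3* and *Vwf* cluster and in lymphatic-like cells. That is 2.94-fold (2.33 to 3.76) and 12.1-fold (8.07 to 19.1) below the capillary-like level. *Dll4* was likewise lower, at 74.4 and 80.9 CPM beside 203 CPM. *Gja4* was high in lymphatic-like cells at 186 and 197 CPM in libraries 1 and 3, and 5.204-fold (4.67 to 5.78) the capillary-like level when pooled. *Gja5* had no UMI in the 185 lymphatic-like cells, which allows a level of up to 1.22 CPM at 3 counts. 

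*Notch3*, *Heyl*, *Gja4* and *Notch1* were higher in pericyte-like than in smooth muscle-like cells. *Notch3* stood at 906, 437 and 1134 CPM in libraries 1, 2 and 3 in pericyte-like and 654, 313 and 845 CPM in libraries 1, 2 and 3 in smooth muscle-like cells. The values of the classes overlapped across libraries, but within each library the pericyte-like value was the higher, by 1.38, 1.40 and 1.34-fold in libraries 1, 2 and 3. *Heyl* stood at 251, 139.7 and 382 CPM in libraries 1, 2 and 3 in pericyte-like and 97.0, 94.7 and 269 CPM in libraries 1, 2 and 3 in smooth muscle-like cells, with ratios of 2.58, 1.48 and 1.42-fold in libraries 1, 2 and 3. *Gja4* stood at 441, 341 and 478 CPM in libraries 1, 2 and 3 in pericyte-like and 190.3, 199 and 359 CPM in libraries 1, 2 and 3 in smooth muscle-like cells, with ratios of 2.32, 1.71 and 1.33-fold in libraries 1, 2 and 3. *Notch1* was higher in pericyte-like cells in the same 3 libraries, with a pooled ratio of 1.61-fold (1.44 to 1.80), while *Jag1* had ratios on both sides of 1, at 1.42, 0.724 and 1.05-fold in libraries 1, 2 and 3. So did *Hey1*, at 0.625, 1.58 and 1.58-fold in libraries 1, 2 and 3. Without the granulocyte-led subcluster, *Notch3* stood pooled at 1044 CPM in pericyte-like and 586 CPM in smooth muscle-like cells. In the same order, *Gja4* stood at 463 and 250 CPM and *Notch1* at 173 and 94.6 CPM. *Jag1* stood at 173 and 149 CPM and *Hey1* at 33.0 and 23.8 CPM. These values lack almost all pericyte-like cells of library 2 but keep its smooth muscle-like cells, so library and class are mixed in them. With library 2 left out of both classes, *Notch3* stood at 1043 and 751 CPM, *Heyl* at 330 and 187 CPM and *Gja4* at 463 and 281 CPM. *Notch1* then stood at 172 and 98.1 CPM, *Jag1* at 173 and 144 CPM and *Hey1* at 33.0 and 27.7 CPM.

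Of the 8 members with at least 100 UMIs in these classes, 2 were at least 2-fold higher in pericyte-like cells with 1 CPM added (*Notch4* and *Dll4*), beside 11.1% of the 8936 genes compared. These calls were not the same in every library. *Dll4* had ratios of 2.42, 4.30 and 1.31-fold in libraries 1, 2 and 3, with an interval of 0.565 to 2.95 in library 3, and *Notch4* had ratios of 2.14, 4.54 and 2.66-fold in libraries 1, 2 and 3, with an interval of 0.994 to 4.55 in library 1. Without library 2, *Dll4* stood at 14.1 against 7.85 CPM and fell below 2-fold, which left *Notch4* alone, at 19.4 against 7.85 CPM. Without the granulocyte-led subcluster, which leaves almost no pericyte-like cells of library 2 while its smooth muscle-like cells stay in, *Dll4* was again below 2-fold, at 14.1 against 7.08 CPM, *Notch4* stood at 19.3 against 7.90 CPM, and *Heyl* passed 2-fold at 330.4 against 153 CPM. Both *Notch4* and *Dll4* were low, at 26.3 CPM (21.5 to 31.97) and 18.6 CPM (14.5 to 23.4) in pericyte-like cells, where the 9 endothelial markers summed to 970.0 CPM, beside 509 CPM in smooth muscle-like cells. The part of endothelial RNA in these values was not tested. The members' median log2 ratio was 0.68 and that of all genes 0.26. *Notch3* and *Heyl* were lowest in library 2 in both classes, and the 9 pericyte markers in pericyte-like cells were too, at 21962, 8545 and 26448 CPM in libraries 1, 2 and 3. In the same cells the 7 granulocyte markers summed to 772, 2720.1 and 505 CPM and the 9 capillary markers to 2626, 7215 and 2202 CPM, both highest in library 2. The part of that RNA in the low *Notch3* and *Heyl* values was not tested.

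**Figure D4:**
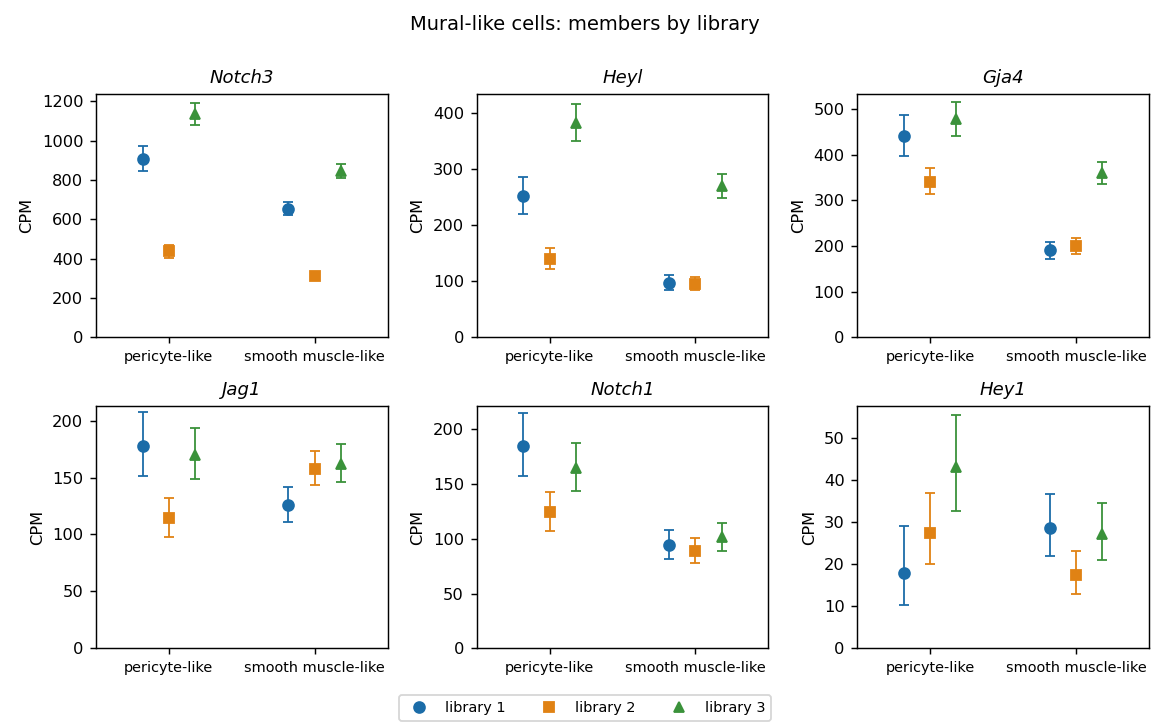
Level in CPM (y axis) of 6 members in pericyte-like and smooth muscle-like cells (x axis), with 1 symbol for each of libraries 1, 2 and 3 and exact 95% Poisson intervals. *Notch3* is higher in pericyte-like cells within each library and lowest in library 2, at 437 and 313 CPM, while *Jag1* lies between 114 and 178 CPM throughout.

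The mixed mural cells carried the genes of both sides. *Notch3* stood at 356 CPM and *Heyl* at 83.0 CPM in them, below the mural-like levels, and *Dll4* at 208 CPM and *Notch4* at 92.7 CPM, near the endothelial-like ones. *Hey1* at 110.0 CPM and *Gja5* at 63.0 CPM were above both endothelial-like and mural-like cells and below arterial-like cells. Their median depth was 17243 UMIs, beside 4867 and 5645 UMIs of endothelial-like and mural-like cells, and the part of joined pairs of cells in these values was not tested. Counted as mural, they turned *Gja5* to a log2 ratio of -1.03 in endothelial-like over mural-like cells.

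Outside the vessel wall, 3 values stood out from the classes around them. In fibroblast-like cells *Gja4* stood at 9.58, 24.2, 8.502 and 177 CPM in libraries 1, 2, 3 and 4. Library 4 lay far above the others, and its fibroblast-like cells formed a cluster led by *Timp1* and *Cxcl14*, with a *Gja4* level of 174 CPM (168 to 181). In the same library *Gja4* stood at 1.58 CPM in macrophage-like and 1.34 CPM in T/NK-like cells, and in 54 mixed mural cells of that library at 718 CPM. There were 1225 *Gja4* UMIs for 100 *Cdh5* UMIs in these fibroblast-like cells and 13.4 in the endothelial-like cells of library 4. *Gja4* was also read in Schwann-like cells, at 132 and 96.2 CPM in libraries 1 and 3, with 50.2 and 27.3 UMIs for 100 of *Cdh5*, beside 2.52 and 5.07 in endothelial-like cells of those libraries. *Dll4* in Schwann-like cells, at 7.85 and 12.0 UMIs for 100 of *Cdh5*, lay below the endothelial-like 19.6 and 12.7. *Cdh5* itself stood at 262 and 352 CPM in these Schwann-like cells. The endothelial-like ratio is an average over vessel types, and arterial-like cells held *Gja4* at 467 and 457 CPM in the same libraries. The part of endothelial and mural RNA in the Schwann-like values was not tested.

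In granulocyte-like cells *Gja5* stood at 20.1 and 6.24 CPM in libraries 2 and 3, and had 0 UMIs in the 98 cells of library 1, which allows up to 7.24 CPM at 3 counts. Library 2 was the highest and held 2751 of the 3112 cells. Its level there was close to that of its endothelial-like cells, 17.4 CPM, while macrophage-like and T/NK-like cells of library 2 stood at 0.807 and 1.33 CPM. For 100 *Cdh5* UMIs there were 26.5 *Gja5* UMIs in granulocyte-like and 1.46 in endothelial-like cells of that library. The latter is an average over vessel types, and arterial-like cells of library 2 held *Gja5* at 844 CPM. Whether endothelial RNA entered the granulocyte-like value was not tested. After thinning, 1.35% (0.954 to 1.84%) of granulocyte-like cells held a *Gja5* UMI, beside 0.0541% (0.00137 to 0.301%) of T/NK-like cells. A low level gives a small share after thinning whether few or many cells carry the RNA, so the share does not tell these apart. *Notch1* in granulocyte-like cells stood at 104, 119 and 131 CPM in libraries 1, 2 and 3, with 130.3 to 157 UMIs for 100 of *Cdh5*, beside 21.4 to 31.7 in endothelial-like cells. A cluster of 763 cells, 760 of library 4, reached 6 of the 7 granulocyte markers but stayed unnamed for its low depth, with none of them among its leading genes, and is not in these values, and its *Notch1* level was 55.5 CPM (46.4 to 65.9). *Heyl* was read in fibroblast-like cells at 52.9, 15.2, 91.2 and 7.34 CPM in libraries 1, 2, 3 and 4, and *Jag1* in macrophage-like cells at 14.3, 32.2, 14.9 and 7.33 CPM in libraries 1, 2, 3 and 4, highest in library 2.

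**Figure D5:**
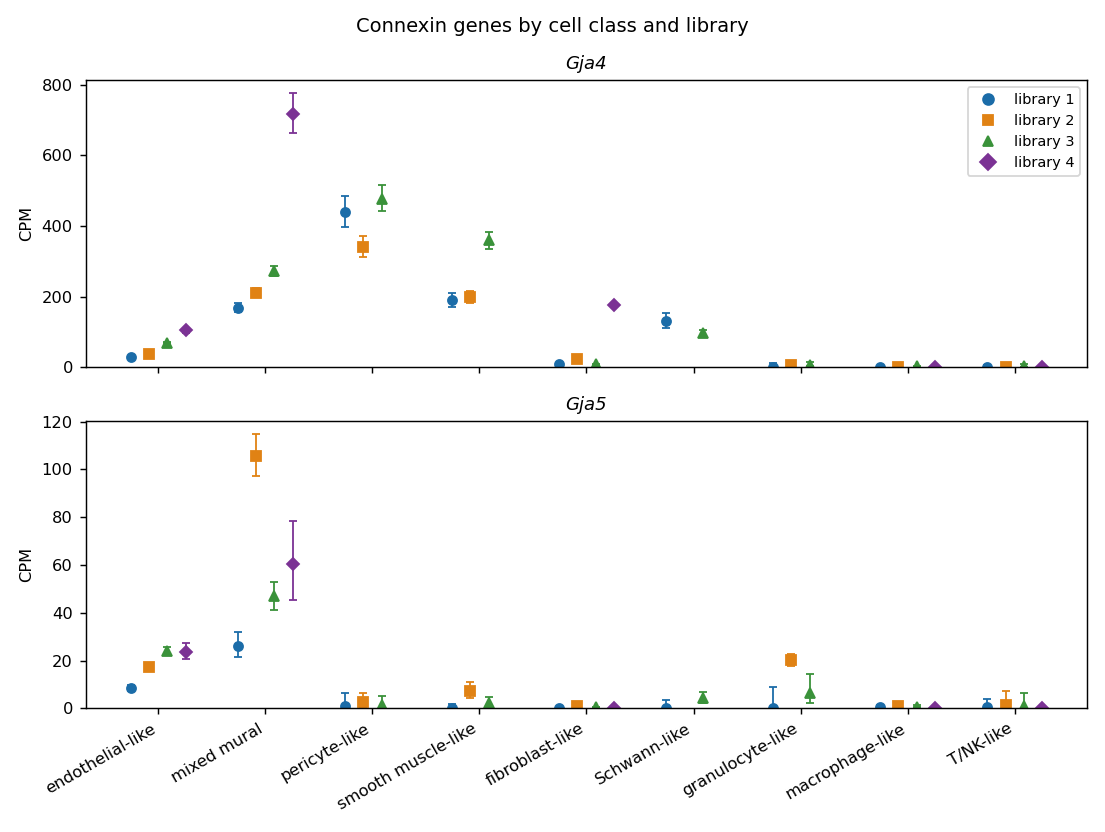
Levels of *Gja4* (upper panel) and *Gja5* (lower panel) in CPM (y axes, each on its own scale) by cell class (x axis), with 1 symbol for each library with at least 20 cells of the class and exact 95% Poisson intervals. In library 4, *Gja4* stands at 177 CPM in fibroblast-like cells and 1.58 CPM in macrophage-like cells, and *Gja5* in granulocyte-like cells is highest in library 2 at 20.1 CPM.

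Among the other genes of the pathway, some differed between arterial-like and capillary-like cells. Of 38 listed genes, all on a row, 32 had at least 100 UMIs there, of which 4 were at least 2-fold higher in arterial-like cells, beside 4.96% of all genes, and 1 in capillary-like cells, beside 5.35%. Higher in arterial-like cells were *Hey2*, a HEY repressor known from arteries, at 17.5 against 1.20 CPM, and the ligand gene *Jag2* at 249.9 against 124 CPM. The ratios in libraries 1, 2 and 3 were 22.2, 46.1 and 7.80-fold for *Hey2* and 1.72, 1.49 and 2.00-fold for *Jag2*, so only *Hey2* passed 2-fold in each. *Psen2*, which encodes a subunit of the protease that frees the intracellular part of Notch, stood at 59.5 against 29.0 CPM, and *Pofut1*, which encodes an enzyme that adds fucose to Notch receptors, at 36.1 against 16.6 CPM. Their ratios were 3.01, 3.06 and 1.498-fold and 1.84, 1.23 and 2.11-fold, each under 2-fold in at least 1 library. *Maml3*, a coactivator of the RBPJ complex, was the gene higher in capillary-like cells, at 7.77 against 20.8 CPM, with 14.1 against 20.9 CPM in library 1 and no UMI in the arterial-like cells of library 2. The target gene *Hes1* stood at 164 against 293 CPM, a ratio of 0.559. Between endothelial-like and mural-like cells, 35 were counted, of which 7 were at least 2-fold higher in endothelial-like cells, beside 14.8% of all genes, and 7 in mural-like cells, beside 13.9%. Higher in endothelial-like cells were the ligand genes *Jag2* (117 against 7.31 CPM) and *Dll1* (32.8 against 2.14 CPM), and *Lfng* and *Mfng*, which encode enzymes that add sugars to Notch receptors. *Mfng* stood at 93.7 against 3.48 CPM and *Lfng* at 14.8 against 1.96 CPM. *Adam10*, the protease that cuts the receptor, *Numb* and *Dtx1* were the others. Higher in mural-like cells were the receptor gene *Notch2* (4.81 against 50.01 CPM) and *Hey2* (1.91 against 69.2 CPM), with *Maml3*, *Aph1b*, *Numbl*, *Dtx3* and *Dtx4*. Of 8 other connexin genes, 3 were counted. *Gja1* was higher in endothelial-like cells (316 against 11.8 CPM) and *Gjc1* in mural-like cells (44.5 against 302 CPM), and of the 2 counted between arterial-like and capillary-like cells neither was 2-fold apart, with *Gja1* at 213 against 332 CPM.

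Single cells thinned to 1000 UMIs show which members were read in the same cell. Of 69 arterial-like cells with a *Gja5* UMI, 46.4% (34.3 to 58.8%) also held a *Gja4* UMI, beside 31.9% (26.6 to 37.7%) of those without, and these intervals overlap. Within library 3 alone these shares were 44.4% against 29.0%, and libraries 1 and 2 held too few such cells to be given apart. Among capillary-like cells the shares were 25.6% of 78 cells with *Gja5* and 2.48% of those without. *Gja4* was also read in 9.37% of capillary-like cells with a *Hey1* UMI and 2.38% of those without. By library these shares were 14.1% against 2.84% in library 2 and 9.40% against 3.35% in library 3. In library 1 they were 1.85% (0.225 to 6.53%) against 1.09% (0.783 to 1.48%), with overlapping intervals. In arterial-like cells *Dll4* was held by 19.0% (9.87 to 31.4%) of cells with *Jag1* and 25.1% (20.3 to 30.4%) of those without, again with overlapping intervals. *Notch4* was held by 18.2% of arterial-like cells with *Notch1* and 19.8% of those without, and *Heyl* by 21.9% of pericyte-like cells with *Notch3* and 18.9% of those without, with overlapping intervals.

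Over the 41 clusters of at least 50 cells, the pattern of each member was set beside that of the 11286 genes that reached 20 CPM in a cluster, by Pearson's r of log2(CPM + 1). The clusters share libraries and depth, so the values are a description. The nearest genes to *Dll4* were *Cyyr1* (0.98), *Cdh5* (0.98) and *Adgrf5* (0.98), and those to *Jag1* were *Arntl2* (0.88), *Tmbim1* (0.87) and *Sept8* (0.87). For the receptor genes they were *Arhgap31* (0.91), *Nhsl2* (0.90) and *Dgkh* (0.90) for *Notch1*, *Cspg4* (0.97), *Map2* (0.97) and *Rgs4* (0.96) for *Notch3* and *Zfp979* (0.96), *Dcbld1* (0.94) and *Slc9a3r2* (0.94) for *Notch4*. For *Hey1* they were *Epas1* (0.93), *Pik3r3* (0.93) and *Fzd4* (0.92) and for *Heyl* *Gpc6* (0.96), *Ebf2* (0.96) and *Pdgfrb* (0.96). *Gja4* had *Afap1l2* (0.87), *A4galt* (0.86) and *Aplp1* (0.85) nearest, and *Gja5* had *Sema3g* (0.78), *Lama3* (0.77) and *Eps8l2* (0.76), the loosest likeness of the 9 genes.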

How the data were processed

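Single-cell RNA of 4 heart grafts was measured with the 10x Chromium 3' kit. The authors deposited raw UMI counts per gene and cell, made with Cell Ranger 3.0.0 on mm10 with Ensembl 92, as 1 merged matrix in which barcode suffixes mark libraries and not grafts. The filter of over 200 genes and less than 20% mitochondrial UMIs left 44626 cells, and 2231 cells nearest to simulated doublets (5% per library) were removed. Counts without mitochondrial genes were scaled to 10000 per cell, and 2000 variable genes, 10 principal components and 30 neighbours gave 27 Leiden clusters (resolution 0.8). Endothelial-like and mural-like cells were clustered again (resolution 0.5) without hemoglobin genes. The 9 members, 38 pathway genes and 8 connexin genes were kept out of the variable genes.

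A cluster took a class name from at least 3 markers, each read in 10% of its cells and 2-fold above the average of the remaining clusters after adding 10 CPM. It stayed unnamed if its 10 leading genes held more markers of another class, with erythroid markers not counted for this. It also stayed unnamed if 3 times its median depth was still below that of its libraries and no marker of the class was among the leading genes. Endothelial clusters were exempt from the depth rule. A cluster with the highest share of erythroid markers, endothelial second and at least 3 endothelial markers was called endothelial before the second clustering. Clusters of 1931 and 1756 cells, both led largely by hemoglobin genes, took the name in this way. Vessel types needed 3 markers of at least 50% of the highest subcluster level. A subcluster whose leading genes held more markers of another vessel type stayed unnamed. Endothelial subclusters led by 3 markers of another class, and mural subclusters with endothelial markers at 20% or more of the endothelial level, or with 3 markers of another class by that 2-fold rule, were called mixed, or erythroid where those markers were erythroid. The seed was 20. These scoring rules and the removal of hemoglobin genes were chosen after seeing the data, and the members and lists were chosen with earlier results of these data known.

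Levels are pooled counts with exact Poisson intervals, shares have Clopper-Pearson intervals and ratios exact conditional ones. Cells are not replicates, so no test was made. Counts of genes used a minimum of 100 UMIs, 1 CPM added and a 2-fold change. The text names the members, listed genes at least 2-fold apart and the 3 genes most like each member, while *Hes1* and *Gja1* between arterial-like and capillary-like cells, leading genes and the values outside the vessel wall were chosen after they were seen. For 62 symbols on several rows the row with most UMIs was used. Ratios, thinning and clustering were tested on simulated data, and the naming of classes was not. The simulated arterial depth was above that of the arterial-like cells. The work was done in Python 3.11.15 with numpy 2.4.6, scipy 1.17.1, igraph 0.11.9, leidenalg 0.10.2 and scikit-learn 1.9.0.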

Additional observations from a re-analysis of the deposited data

How the results depend on the processing

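No paired analysis was possible because the cells are not mapped to grafts. The number of members higher in endothelial-like than in mural-like cells was 5 in the main setting and 5 with each library left out, and it was 3 with the mixed mural cells counted as mural, where *Gja5* turned to a log2 ratio of -1.03. Over all 26 alternatives it ran from 3 to 5. The alternatives without the platelet-led endothelial subcluster, without the granulocyte-led pericyte-like subcluster, and without single libraries among mural-like cells were chosen after seeing the data. At a clustering resolution of 0.4 no mural-like cells were named and this comparison gave no value. The number at least 2-fold higher in arterial-like than in capillary-like cells was 4 in the main setting, 4 with each library left out, and 2 with another random start of the clustering (seed 22), an alternative chosen after seeing the data, in which 3022 cells were named arterial. Over all 23 alternatives it ran from 2 to 6, with 6 at 500 or more genes per cell and with the hemoglobin genes kept. *Gja4* and *Gja5* stayed at least 2-fold higher under all 23 alternatives, with log2 ratios from 1.92 to 4.74 and from 2.28 to 5.93, and *Jag1* and *Hey1* under all but that one. The cause of these changes was not tested. The number whose highest library was at least 2-fold the lowest was 6, from 2 to 6 with each library left out, 2 at a resolution of 0.4 and 2 with 10 CPM added. The lowest of these left-out values is without library 4, and over all 24 alternatives the number ran from 2 to 7. No share of all genes was counted for the alternatives. *Notch4*, at 1.97-fold in the main setting, passed 2-fold in 5 of the 24. One of these leaves out the endothelial-like cluster led by *Cxcl3* and *Spp1*, an alternative chosen after seeing the data. A ratio of a single gene counted as moved where it left the counting interval placed around its main value with 1 CPM added, a placement chosen after seeing the data. Depth limits *Notch3* and *Heyl* in endothelial-like cells and *Gja5* outside arterial-like cells, which rest on few UMIs per cell.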
